A study of Mus musculus with 6 samples.

Results

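The genes described here form the machinery that makes, reads and destroys cyclic AMP (cAMP): the adenylyl cyclases (*Adcy*), the cyclic nucleotide phosphodiesterases (*Pde*), the subunits of protein kinase A (PKA; *Prkac*, *Prkar*), the PKA inhibitor peptides (*Pki*), the cAMP-activated exchange factors Epac1 and Epac2 (*Rapgef3*, *Rapgef4*) and the A-kinase anchoring proteins (*Akap*). They were taken by gene symbol alone, which gave 59 of the 31508 symbols on the array, carried by 126 of 45281 probes. The symbols also take in proteins that are no cyclic nucleotide phosphodiesterase, namely *Pde6d*, a chaperone of prenylated proteins, and *Pde4dip* (myomegalin), a centrosome and Golgi protein named for binding a phosphodiesterase.

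Cortical bone tubes were cut from the tibia and femur of C57BL6 mice aged 3 months. Flushing and collagenase-trypsin digestion served to remove marrow and surface cells. The tubes were cultured overnight and then kept for 24 hours without hormone (control, Ctr) or with 250 nM PTH 1-34, the active N-terminal fragment of parathyroid hormone. No engineered allele is named, and both groups had the same digestion and overnight culture with fetal calf serum. Each group had 3 arrays, and the RNA of a preparation was pooled from about 10 bones of 4 to 5 mice. The labels do not say whether preparations with different numbers came from separate mice, so p-values measure the spread between these arrays. The tissue is labelled as osteocytes in cortical bone. Of the osteocyte markers, *Dmp1*, *Mepe* and *Phex* were above background on all 6 arrays, *Sost* on 3 control arrays and 1 PTH array, and *Fgf23* on none. Signal of other cells remained. Mean log2 signals in control were 14.64 for *S100a8*, 13.07 for *Ltf*, 11.92 for *Hba-a1* and 13.05 for *Ctsk*, against 8.70 for *Dmp1* and 12.26 for *Mepe*. Other markers of those cells (*Ela2*, *Mmp8*, *Klf1*, *Calcr*) were above background on no array. The member signals are thus not those of osteocytes alone.

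The PTH receptor couples through Gs to the adenylyl cyclases, which turn ATP into cAMP. In the absence of cAMP, the regulatory subunits of PKA hold the catalytic subunits inactive, and binding of cAMP releases them. The PKI peptides block free catalytic subunits and carry them out of the nucleus. AKAPs tether PKA, often together with phosphatases and phosphodiesterases, to particular sites in the cell, Epac proteins pass the cAMP signal to the small GTPase Rap, and the phosphodiesterases end the signal. Genes for cAMP-degrading enzymes are known targets of cAMP itself in many cells, a classical negative feedback.

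A detection p under 0.05 marked a probe as above background. Of the 126 probes, 57 reached this on no array and 38 on all 6. The test took in probes that reached it on 3 or more arrays, which left 49 probes of 35 members. One of the 49, *Pde10a*, passed through the PTH arrays alone. Median raw signal was between 111 and 129 on the 6 arrays, close to background, and between 46 and 53 of the member probes were above background on an array.

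At an adjusted p under 0.05 (limma, adjusted over all probes tested), 1 of the 49 member probes differed between PTH and control, that of *Pkib*, which was lower with PTH. The same threshold called 1.61% of all 16214 probes tested, 0.617% higher and 0.993% lower with PTH. The 3 PTH arrays lay entirely above the 3 control arrays for 9 member probes and entirely below for 3, together 12 of 49 or 24.5%, beside 20.8% over all probes (10.3% above and 10.5% below). An unadjusted p under 0.05 was reached by 10 of the 49 member probes, and by 14.6% of all probes. *Pde10a*, which entered the test through the PTH arrays alone, is among the 9 and the 10, so its separation is not independent of the filter. Of all probes tested, 140 passed the filter on 1 group only. The median log2 difference of the members was 0.06, against 0.0036 for all probes, and 63.3% of member probes had a difference above 0, against 50.6% of all probes. For 23 of the 49 probes the 95% interval of the difference lay within a 1.5-fold change in either direction.

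**Figure D1:**
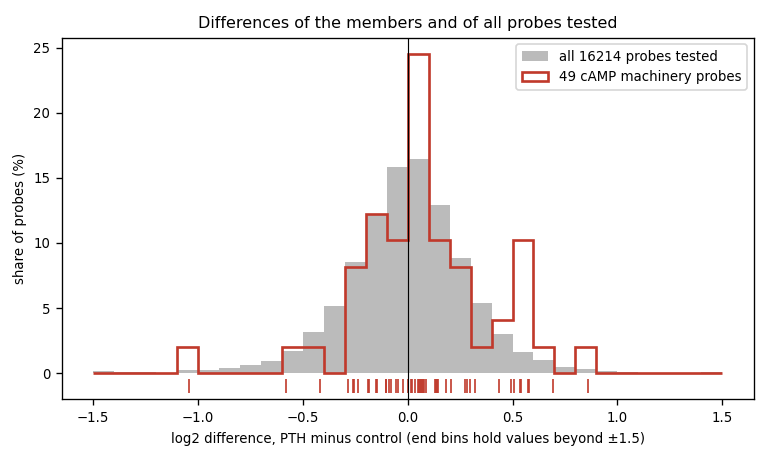
Share of probes (vertical axis, percent) in bins of the log2 difference between PTH and control (horizontal axis) for all 16214 probes tested (grey) and for the 49 cAMP machinery probes (red outline, with a tick for each probe). The members centre near 0, with a median of 0.06, and *Pkib* lies apart at -1.04.

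The PKA inhibitors were the family that held the called gene. *Pkib*, which encodes the beta form of the inhibitor peptide, had normalized log2 signals of 6.47, 6.09 and 6.18 in control and 5.00, 5.11 and 5.50 with PTH. The groups did not overlap. The mean fell from 6.25 ± 0.20 (SD, n = 3) to 5.20 ± 0.26 (SD, n = 3), a log2 difference of -1.04 (SE 0.18, limma adjusted p = 0.0328), or 2.06-fold lower. The signal was low throughout. In raw units it was 169, 172 and 163 in control and 119, 125 and 158 with PTH, and it was above background on 3 control and 2 PTH arrays, 1 PTH array thus being at background level. Under quantile normalization without background correction the log2 difference was -0.38 and passed (limma adjusted p = 0.0215). When single arrays were omitted the log2 difference stayed between -1.14 and -0.95, and the adjusted p was between 0.0401 and 0.12, under 0.05 only without PTH replicate 3. The call also ended under median scaling (limma adjusted p = 0.113), with the replicate number as a block (0.0974), with every probe tested whatever its detection (0.0612) and with a term for arrays numbered 3 (0.055). The log2 difference under median scaling was -0.91. Relative to the median of all probes it was -1.02, against -1.05 as reported. Every named probe had the same SE of 0.29 under median scaling, so that p does not use the probe's own spread. The other 3 *Pkib* probes were above background on no array.

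The gamma form, *Pkig*, was measured by 3 probes above background on all arrays, and they did not move as one. Their log2 differences were 0.18, 0.05 and -0.29, with adjusted p-values from 0.681 to 0.915 (limma). The probe with the difference of -0.29 varied most between PTH arrays, at 6.25, 6.63 and 7.29, against 6.78, 7.09 and 7.15 in control. The alpha form, *Pkia*, known best from muscle and brain, hovered at the edge of detection, above background on 2 control and 2 PTH arrays. Its values were 4.61, 5.71 and 5.26 in control and 5.33, 4.61 and 5.68 with PTH, fully overlapping (log2 difference 0.02, SE 0.34).

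None of the 6 tested probes of PKA subunits passed the limma test, with 0 at an unadjusted p under 0.05 as well. For *Prkacb*, a catalytic subunit, the control arrays read 11.22, 11.07 and 10.97 and the PTH arrays 10.98, 11.11 and 10.94, a log2 difference of -0.08 with a 95% interval from -0.38 to 0.21. *Prkaca*, the other catalytic subunit, had 2 probes. One read 8.22, 8.33 and 8.29 in control and 8.14, 8.03 and 8.11 with PTH, without overlap, yet the difference of -0.18 was small and did not pass (SE 0.12, limma adjusted p = 0.527). The other probe of *Prkaca* showed a difference of 0.04 (SE 0.19), with PTH arrays at 7.65, 7.81 and 8.29 around control arrays at 7.92, 7.74 and 7.98. Among the regulatory subunits, *Prkar1a*, the ubiquitous type I subunit, read 10.67, 10.55 and 10.86 in control and 10.82, 10.91 and 11.20 with PTH. The groups overlapped, and the difference of 0.28 (95% interval from -0.07 to 0.64) did not pass. *Prkar2b*, a type II subunit, differed by -0.10 (95% interval from -0.42 to 0.21), its PTH arrays at 8.78, 8.67 and 8.55 overlapping the control arrays at 8.95, 8.66 and 8.71. *Prkar1b* was dim and scattered in control, at 5.20, 6.26 and 5.64, against 5.64, 5.72 and 5.47 with PTH (log2 difference -0.09, SE 0.25). No probe of *Prkar2a* or of *Prkar1b-rs*, a related sequence, passed the filter. The small negative differences of *Prkacb* and *Prkar2b* depended on the scaling, turning to 0.06 and 0.04 under median scaling, which moved the median of all probes to 0.11. Relative to that median they were still negative, at -0.05 and -0.07.

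Of the Epac genes, *Rapgef4* (Epac2) was above background on all arrays. It read 6.82, 6.62 and 6.75 in control and 5.59, 6.66 and 6.20 with PTH. One PTH array, replicate 2, lay within the control range, and the difference of -0.58 (SE 0.25, limma adjusted p = 0.341) did not pass. *Rapgef3* (Epac1) was above background on too few arrays to be tested.

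**Figure D2:**
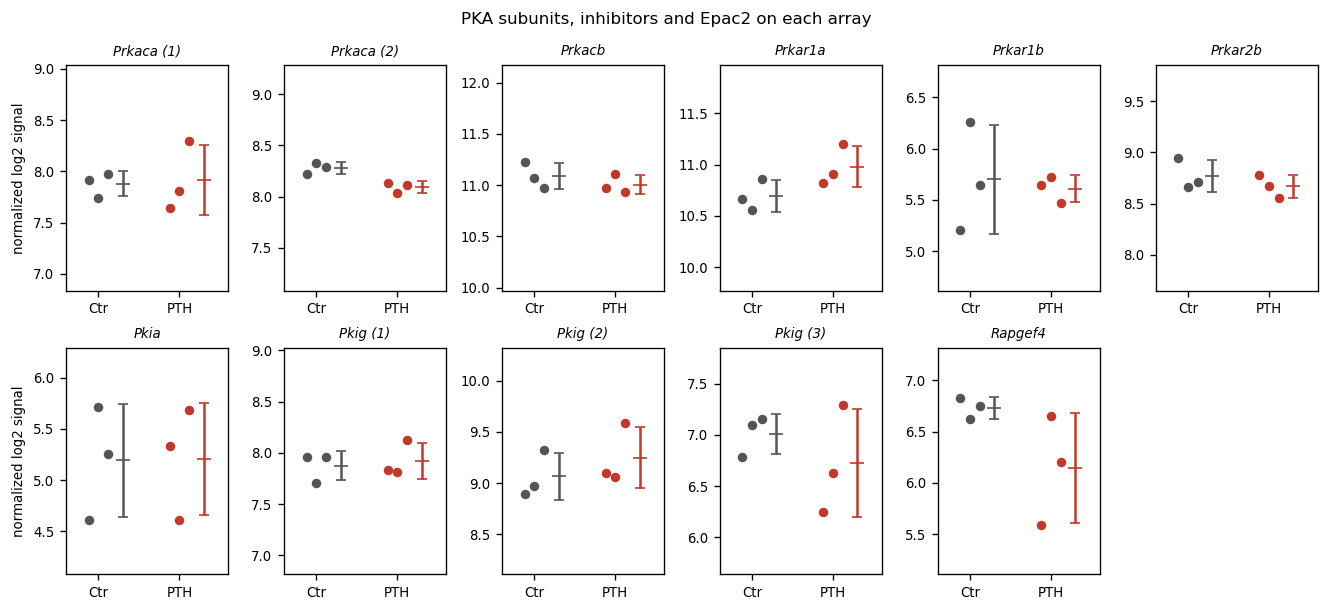
Normalized log2 signal (vertical axis, each panel spanning the same range of 2.2 log2 units) of the tested probes of PKA subunits, *Pkia*, *Pkig* and *Rapgef4* on each control (grey) and PTH (red) array, with the group mean and SD beside the points. Numbers in brackets tell probes of one gene apart. Only 1 *Prkaca* probe had groups that did not overlap, by a difference of -0.18.

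Among the adenylyl cyclases, 8 probes of 6 genes were tested and none passed the adjusted limma test, with 1 at an unadjusted p under 0.05. The largest difference was that of *Adcy9*, the broadly expressed cyclase that responds poorly to forskolin. Its control arrays read 5.46, 5.57 and 5.18 and its PTH arrays 5.91, 5.99 and 5.80, all above control (log2 difference 0.49, SE 0.14, limma adjusted p = 0.167). *Adcy4*, a cyclase of the group stimulated by G protein beta-gamma subunits, is on the study's list of genes raised by PTH both in an osteocyte cell line and on these arrays, so that the listing is not independent of the values here. The study drew that list from a gene set enrichment analysis, so being listed was not a call of the single gene. The 2 *Adcy4* probes disagreed. One read 6.67, 6.87 and 6.87 in control and 7.36, 6.92 and 7.03 with PTH, a difference of 0.30 (SE 0.15) without overlap, and the other had a difference of -0.15 (SE 0.18). Neither passed (limma adjusted p = 0.43 and 0.756). The other 5 probes lay between -0.10 and 0.27. They were those of *Adcy2*, *Adcy3*, *Adcy6*, which calcium inhibits, and *Adcy7* with 2 probes. *Adcy2* read 6.99, 7.04 and 6.80 in control and 6.94, 6.88 and 7.23 with PTH, overlapping. No probe of *Adcy1*, *Adcy5* or *Adcy8* passed the filter.

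The phosphodiesterases spread most widely, from -0.42 to 0.86, over 16 tested probes of 11 genes, and none passed the adjusted limma test, with 5 at an unadjusted p under 0.05, *Pde10a* among them. The Pde4 enzymes, which hydrolyse cAMP only and are the main cAMP-degrading enzymes of many cells, all had differences above 0. *Pde4b* read 7.25, 7.19 and 6.98 in control and 7.74, 7.69 and 7.72 with PTH. The PTH arrays agreed closely and lay above every control array (log2 difference 0.58, SE 0.13, 1.49-fold, limma adjusted p = 0.078). *Pde4d* had the largest difference of all members above 0. It read 6.49, 6.31 and 5.56 in control and 7.04, 7.24 and 6.67 with PTH, without overlap, its control replicate 3 lowest (log2 difference 0.86, SE 0.26, limma adjusted p = 0.182). *Pde4a* read 5.48, 5.03 and 4.67 in control, where it was above background on 1 array, and 5.29, 5.59 and 5.61 with PTH, with overlap (log2 difference 0.44, SE 0.21, limma adjusted p = 0.406). *Pde4b* and *Pde4d* are also on that list of raised genes, for which these arrays were used together with the cell line. Under quantile normalization alone, the normalization the methods name, *Pde4b* (log2 difference 0.37, limma adjusted p = 0.0202) and *Pde4d* (0.41, limma adjusted p = 0.0374) passed, and *Pde4b* passed also with an offset of 50 (limma adjusted p = 0.0351) and with detection p under 0.01 required on all 6 arrays (limma adjusted p = 0.0286). When single arrays were omitted *Pde4b* stayed between 0.50 and 0.63 and its adjusted p between 0.14 and 0.197. No *Pde4c* probe was tested, and 8 of the 11 Pde4 probes were not above background on enough arrays.

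The remaining phosphodiesterases went both ways. *Pde8a*, an enzyme of high affinity for cAMP, read 8.77, 8.53 and 9.07 in control and 9.33, 9.0 and 9.57 with PTH. The groups overlapped, with the lowest PTH array just under the highest control array (log2 difference 0.51, SE 0.20, limma adjusted p = 0.286). *Pde10a*, which hydrolyses both cAMP and cGMP, reached background on none of the control arrays but exceeded it on all 3 PTH arrays (5.21, 5.08 and 5.54). It was taken into the test through the PTH arrays only, and did not pass. Against the mean over the control arrays of each array's lowest signal above background, its PTH mean was at least 1.17-fold higher. *Pde1b*, a calmodulin-dependent enzyme, had 2 probes below 0. The brighter read 5.88, 6.01 and 5.82 in control and 5.25, 5.79 and 5.41 with PTH, without overlap (log2 difference -0.42, SE 0.16, limma adjusted p = 0.294), and the other gave -0.24 (SE 0.25). *Pde2a*, which cGMP stimulates, read 6.44, 5.94 and 6.62 in control and 6.03, 5.94 and 6.25 with PTH, overlapping (log2 difference -0.26, SE 0.19). *Pde1b* and *Pde2a* are on the study's list of genes lowered in both the cell line and these arrays, again not independent of these values. That list too came from a gene set enrichment analysis and not from a call of each gene. Neither passed the test of single probes here. *Pde3a* and *Pde1a* lay between -0.06 and 0.15. Of the proteins outside the enzyme family, *Pde4dip* gave 0.14 (SE 0.15), and the 4 probes of *Pde6d* lay between -0.25 and 0.20, on both sides of 0, while the catalytic and gamma subunits of the photoreceptor enzyme (*Pde6a*, *Pde6b*, *Pde6c*, *Pde6g* and *Pde6h*) had 8 probes of which none could be tested. Nor could *Pde1c*, *Pde3b*, *Pde5a*, *Pde7a*, *Pde7b*, *Pde8b*, *Pde9a* and *Pde11a*.

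Of the 13 tested anchor probes, of 9 genes, 11 had a difference above 0, with a median of 0.07, and 4 had PTH arrays entirely above control, beside 50.6% and 10.3% of all probes. The 4 were the probes of *Akap7*, *Akap12* and *Akap11*, the last with 2 probes. Probes of one gene are not independent, so these shares do not count genes. None passed the adjusted limma test, and 3 had an unadjusted p under 0.05, those of *Akap11* and *Akap12*, as had 14.6% of all probes. *Akap12* (gravin), a scaffold for PKA, PKC and beta-adrenergic receptors, read 7.24, 7.27 and 7.39 in control and 7.91, 7.88 and 7.82 with PTH. Both groups were tight and well apart (log2 difference 0.57, SE 0.12, 1.49-fold, limma adjusted p = 0.0638). With quantile normalization and no background correction it passed (log2 difference 0.38, limma adjusted p = 0.0145), as it did with an offset of 50 (limma adjusted p = 0.0278) and with the stricter detection filter (limma adjusted p = 0.0211), and reached an adjusted p of 0.476 (limma) under median scaling. There its SE was 0.29, as for every named probe, against 0.12 as reported. *Akap11* (AKAP220), which also binds type 1 protein phosphatase and GSK3, was measured by 2 probes that went the same way. The brighter read 7.96, 8.01 and 7.96 in control and 8.71, 8.61 and 8.22 with PTH (log2 difference 0.54, SE 0.15), and the dimmer 5.33, 4.80 and 4.96 in control, where 1 array was above background, and 5.70, 6.01 and 5.46 with PTH (0.70, SE 0.20). On both probes every PTH array exceeded every control array, and the adjusted p-values were 0.16 and 0.155 (limma). The dimmer probe met the detection filter mainly through its 3 PTH arrays, so its separation is not independent of the filter. *Akap7*, an anchor at the plasma membrane close to calcium channels, read 7.28, 7.38 and 7.05 in control and 7.57, 7.71 and 7.40 with PTH (log2 difference 0.32, SE 0.15, limma adjusted p = 0.363), its groups just apart. The other 9 anchor probes stayed close to 0. *Akap9*, the large scaffold of the centrosome and Golgi, read 9.36, 9.16 and 9.12 in control and 9.29, 9.41 and 9.16 with PTH on its brighter probe, a difference of 0.07 with a 95% interval from -0.24 to 0.38. *Akap1*, the mitochondrial anchor, had 3 probes between 0.02 and 0.09. The lowest difference was that of *Akap10*, a dual-specificity anchor, at 7.80, 7.87 and 7.72 in control and 7.75, 7.57 and 7.52 with PTH (log2 difference -0.19, SE 0.13). *Akap2*, *Akap8* and *Akap8l*, the last pair nuclear proteins, lay between -0.15 and 0.13. *Akap3*, *Akap4* and *Akap14*, anchors of sperm and cilia, and *Akap6*, an anchor of the muscle nuclear envelope, could not be tested.

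**Figure D3:**
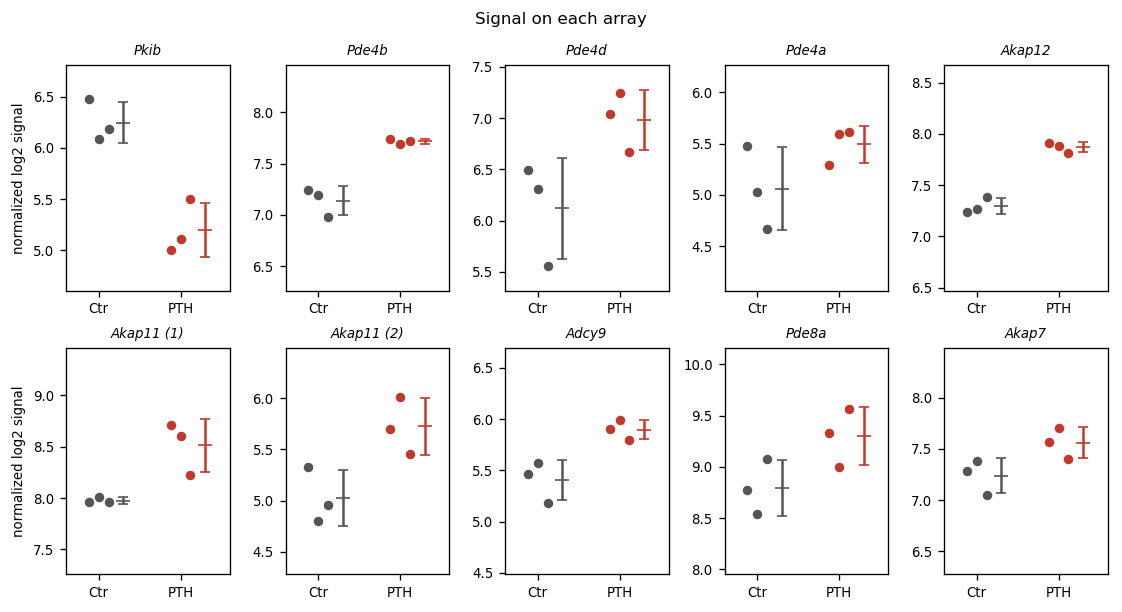
Normalized log2 signal (vertical axis, each panel spanning the same range of 2.2 log2 units) of 10 member probes on each control (grey) and PTH (red) array, with the group mean and SD beside the points. *Pkib* is the probe that passed the test, with PTH arrays from 5.00 to 5.50 below control arrays from 6.09 to 6.47.

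Where a member had several tested probes, they measured the same gene on the same arrays and were not independent. Of 10 such members, all probes lay on one side of 0 for 5, *Akap1*, *Akap9*, *Akap11*, *Pde1a* and *Pde1b*, and on both sides for *Adcy4*, *Adcy7*, *Pde6d*, *Pkig* and *Prkaca*. With each gene counted once by its brightest probe, 1 of 35 members was called, beside 1.73% of 11979 genes.

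**Figure D4:**
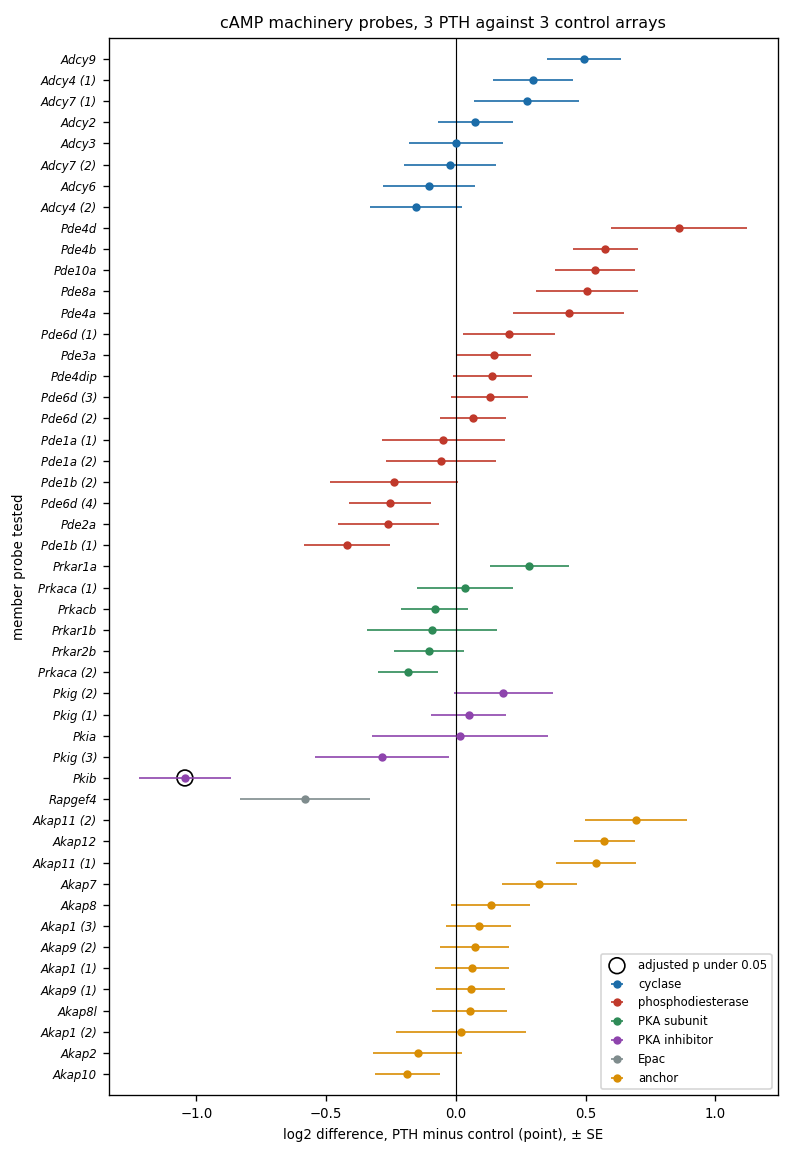
Log2 difference between PTH and control (points, horizontal axis) with its SE (bars) for the 49 tested member probes, ordered within each family and coloured by family, with a ring around the probe at an adjusted p under 0.05. Numbers in brackets tell probes of one gene apart. *Pkib* alone carries the ring, and the Pde4 enzymes, *Akap11* and *Akap12* lie between 0.44 and 0.86.

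Promoters are shown for the called gene, for *Pde4b*, *Akap11*, *Adcy9* and *Prkaca*, which each had a probe whose groups did not overlap (higher with PTH for the first 3, lower for *Prkaca*) and a window with a short cAMP response element, and for *Prkar1a*, which holds the full one, since CREB, the transcription factor that PKA phosphorylates, binds this element. The windows run from 250 bases before to 50 after a RefSeq transcript start (GRCm38.p6), and 46 of the 59 member symbols had one or more, 92 in all. Searched on both strands were the short element TGACG, whose reverse strand reads CGTCA, and the full palindrome TGACGTCA, which contains 2 overlapping short elements. The short element was found in 21.7% of member windows and in 20.8% of all 32851 windows, the full element in 2.17% and 1.79%. Both member windows with the full element belong to *Prkar1a* and overlap each other. Sequences are given 5′ to 3′ on the gene's strand, with matches in capitals, to the full element for *Prkar1a* and to the short element for the others.
*Pkib*, chr10:57631731-57632030, plus strand: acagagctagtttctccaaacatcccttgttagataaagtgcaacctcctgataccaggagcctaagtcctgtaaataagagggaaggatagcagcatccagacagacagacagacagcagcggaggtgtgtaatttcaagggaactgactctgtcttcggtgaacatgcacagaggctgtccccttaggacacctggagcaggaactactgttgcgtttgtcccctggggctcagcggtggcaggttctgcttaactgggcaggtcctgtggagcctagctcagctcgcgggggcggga
*Pkib*, chr10:57645619-57645918, plus strand: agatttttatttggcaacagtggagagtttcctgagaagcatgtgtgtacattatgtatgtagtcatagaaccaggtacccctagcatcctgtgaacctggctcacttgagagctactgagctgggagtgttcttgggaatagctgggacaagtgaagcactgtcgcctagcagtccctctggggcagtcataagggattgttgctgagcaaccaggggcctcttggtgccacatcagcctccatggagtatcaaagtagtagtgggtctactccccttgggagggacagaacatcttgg
*Pde4b*, chr4:102421305-102421604, plus strand: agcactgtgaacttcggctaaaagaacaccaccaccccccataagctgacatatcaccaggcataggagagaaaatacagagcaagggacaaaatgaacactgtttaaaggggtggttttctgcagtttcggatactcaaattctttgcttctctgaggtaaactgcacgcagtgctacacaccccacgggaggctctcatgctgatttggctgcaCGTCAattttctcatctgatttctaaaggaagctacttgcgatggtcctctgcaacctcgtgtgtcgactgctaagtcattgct
*Akap11*, chr14:78536811-78537110, minus strand: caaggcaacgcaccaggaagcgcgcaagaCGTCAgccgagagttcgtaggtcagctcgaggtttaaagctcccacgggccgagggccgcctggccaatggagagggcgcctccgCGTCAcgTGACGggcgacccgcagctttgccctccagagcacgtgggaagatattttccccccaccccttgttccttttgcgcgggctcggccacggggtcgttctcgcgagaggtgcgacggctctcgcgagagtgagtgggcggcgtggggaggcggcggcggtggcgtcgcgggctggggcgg
*Adcy9*, chr16:4420449-4420748, minus strand: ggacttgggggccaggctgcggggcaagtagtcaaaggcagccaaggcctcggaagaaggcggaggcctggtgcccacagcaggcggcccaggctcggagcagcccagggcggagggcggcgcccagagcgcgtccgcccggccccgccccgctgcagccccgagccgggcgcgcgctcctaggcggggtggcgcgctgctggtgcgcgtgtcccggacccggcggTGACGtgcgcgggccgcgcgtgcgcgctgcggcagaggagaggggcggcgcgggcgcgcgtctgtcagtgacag
*Prkaca*, chr8:83972728-83973027, plus strand: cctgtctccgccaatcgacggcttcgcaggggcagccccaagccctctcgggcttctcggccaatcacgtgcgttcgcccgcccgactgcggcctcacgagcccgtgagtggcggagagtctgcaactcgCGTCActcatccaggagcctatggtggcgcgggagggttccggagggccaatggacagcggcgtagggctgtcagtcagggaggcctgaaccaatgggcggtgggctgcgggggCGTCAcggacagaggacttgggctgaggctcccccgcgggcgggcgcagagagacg
*Prkar1a*, chr11:109650699-109650998, plus strand: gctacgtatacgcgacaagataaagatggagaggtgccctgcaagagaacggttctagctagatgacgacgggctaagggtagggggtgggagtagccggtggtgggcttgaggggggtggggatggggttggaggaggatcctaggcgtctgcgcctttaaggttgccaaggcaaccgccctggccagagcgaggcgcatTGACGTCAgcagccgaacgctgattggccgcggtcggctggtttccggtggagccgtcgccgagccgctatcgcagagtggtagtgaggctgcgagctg

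Neither *Pkib* window held a short element. The upstream window of *Pde4b* held 1, starting 34 bases before the transcript start, and the other *Pde4b* windows none. The upstream *Akap11* window held 3, starting 221, 136 and 129 bases before the start, the *Adcy9* window 1, at 24 bases before, and the upstream *Prkaca* window 2, at 120 and 6 bases before. The full element of *Prkar1a* started 49 bases before the transcript start of the window shown, in a gene whose signal differed by 0.28 without passing. Of the 20 windows of members whose groups did not overlap, 4 held a short element, or 20.0%, beside 20.8% of all windows. They are the windows shown for *Pde4b*, *Akap11*, *Adcy9* and *Prkaca*, which were picked for holding it. The windows of *Pde4d*, *Pde10a*, *Pde1b*, *Akap7* and *Adcy4*, not shown, held none. The matches describe letters in a window, and binding was not measured.

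Of the other genes of the cAMP pathway, taken from lists of G proteins and receptor, effectors, CREB with its coactivators, and response genes, 29 of 47 on the array could be tested by their brightest tested probe, and 2 were higher and 1 lower with PTH, or 10.3%, beside 1.73% of all genes by brightest probe. The lists were chosen with results of these data known. The study itself names the receptor as lowered and *Tnfsf11* as raised on these arrays. The share is therefore not independent of these values and says nothing on the pathway as a set. The receptor, listed as *Pthr1*, fell from 9.98, 10.19 and 9.87 in control to 8.84, 8.47 and 8.62 with PTH (log2 difference -1.37, SE 0.15, limma adjusted p = 0.00693, or 0.0517 with the replicate number as a block). *Rgs2*, a GTPase-activating protein that shortens G protein signals and is itself a cAMP target, rose from 4.61, 4.89 and 5.00 in control, above background on 1 array, to 6.22, 6.62 and 6.31 with PTH (1.55, SE 0.16, limma adjusted p = 0.00578). *Tnfsf11*, the gene of RANKL, rose by 1.49 (SE 0.25, limma adjusted p = 0.0298). Its call ended when every probe was tested (limma adjusted p = 0.0656) and on omission of any single array other than control replicate 3, with adjusted p up to 0.118. The Gs alpha gene *Gnas* gave -0.06 (SE 0.20), and *Crem*, which encodes the cAMP-induced repressor ICER among its products, gave 0.45 (SE 0.16) with PTH arrays above control and did not pass (limma adjusted p = 0.246).

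In RNA of whole bone tubes, fewer cells of a type and less RNA per cell cannot be told apart, and the members are expressed in many cell types. Some marker lists moved with PTH. Of 9 neutrophil and myeloid markers, 7 were tested and 4 were lower, with the summed linear signal between 53107 and 53980 in control and between 34259 and 38831 with PTH, and *Ela2* and *Mmp8* above background on no array. Of 8 red cell markers only *Hba-a1* and *Hbb-b1* were tested, both lower, with sums between 8687 and 10125 in control and between 2479 and 2745 with PTH, while *Klf1* was above background on no array. Of 8 osteoclast markers 5 were tested and 3 were higher, with sums between 11963 and 13433 in control and between 16190 and 20708 with PTH, and *Calcr* and *Atp6v0d2* above background on no array. Of 9 osteoblast markers, 2 of 8 tested were lower, of 8 osteocyte markers 1 of 7, and of 8 cartilage markers 1 of 4. These sums were lower without overlap as well. Osteoblast sums were 63554 to 69140 in control and 53748 to 57047 with PTH. Osteocyte sums were 14884 to 15760 and 12633 to 13351, and cartilage sums 449 to 464 and 346 to 362. The tested osteocyte markers had a median log2 difference of -0.88, although *Gp38* gave 0.70. Of all genes by brightest probe, 1.73% were called. No tested gene of the endothelial (8), macrophage (9), smooth muscle (4), B lymphocyte (4), adipocyte (3) or skeletal muscle (2) lists was called. The part of these cell types in the difference of *Pkib*, or in those of the other members, was not tested.

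The number of members called, between 0 and 5, changed with the background treatment, the scaling, the detection filter, the replicate block and the omission of single arrays, as the plot of adjusted p by setting shows.

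**Figure D5:**
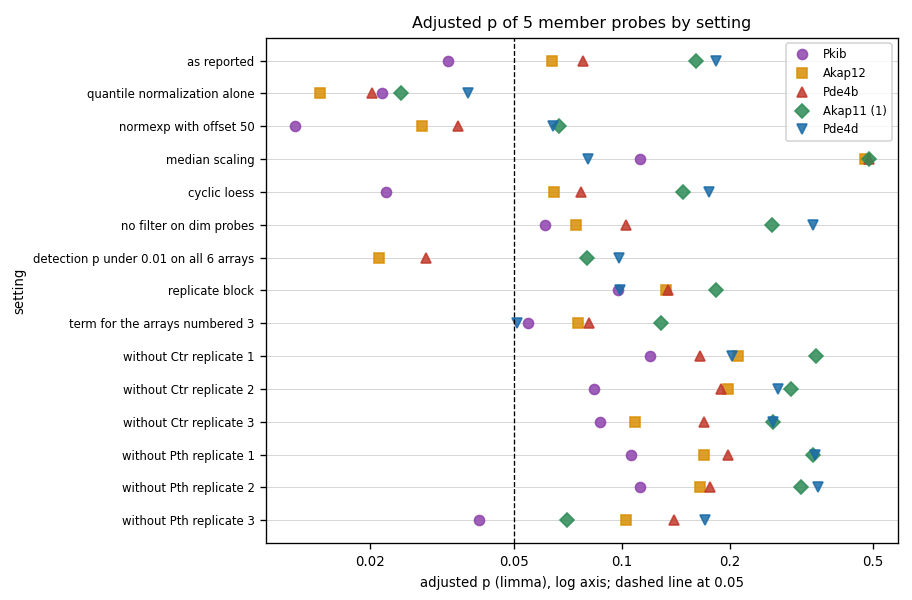
Adjusted p (limma, horizontal log axis, dashed line at 0.05) of the probes of *Pkib*, *Akap12*, *Pde4b*, *Akap11* (brighter probe) and *Pde4d* under each setting (vertical axis); a missing point is a probe that was not tested there. All 5 passed under quantile normalization alone and *Pkib* alone in the values as reported, and none passed under median scaling. Under median scaling the 5 probes had the same SE of 0.29, so those p-values do not use each probe's own spread.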

How the data were processed

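Total RNA of cortical bone tubes was hybridized by the authors to Illumina mouse bead arrays and read out in GenomeStudio. The authors deposited linear signal intensity values per probe and array, not normalized and with values far above 0, and beside each a detection p-value against the negative controls of that array. Members were taken by symbol, 57 of 59 of which are current RefSeq symbols (GRCm38.p6), and the members and lists were chosen with earlier results of these data known.

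From the signals, background was corrected by normexp, with negative controls inferred from the detection p-values, and an offset of 16 was added before quantile normalization and log2, with neqc in limma 3.58.1 (R 4.3.3). Tested were probes with 3 or more of the 6 arrays at a detection p under 0.05. The difference of PTH from control came from limma's lmFit and eBayes over the 6 arrays without covariates, p-values were adjusted across the tested probes (Benjamini-Hochberg), and an adjusted p under 0.05 was a call. Intervals are limma's moderated 95% intervals. The fit was also run on simulated arrays with known changes, drawn independently around the control means. Such arrays hold no deviation shared by arrays of one number, so the simulation cannot show how the calls fare under it. Precision is set by having only 3 arrays a group, for which the smallest p of an exact permutation test is 0.1.

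Named with values were the called probe, the tested probes of Pde4, PKA, PKI and Epac genes, the extremes and the highest mean of each other family, and probes whose groups did not overlap. Alternatives were median scaling or cyclic loess in place of quantiles, quantiles without background correction, an offset of 50, testing every probe or only those with detection p under 0.01 throughout, the replicate number as a block, an added fold minimum of 1.5, and omission of each array. A term for the arrays numbered 3 was added after seeing the data. No slide is named, so a slide block was not run. The study's own score was not used here.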

Additional observations from a re-analysis of the deposited data

How the results depend on the processing

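The count of all probes called, 261 as reported (38.3% higher with PTH), was 725 under quantile normalization alone, 502 with an offset of 50, 138 under median scaling (55.8% higher), 422 with the stricter detection filter and 64 with the replicate number as a block, and between 72 and 127 with 1 array left out. Of the members, 1 probe was called as reported, 5 under quantile normalization alone, 3 with an offset of 50, 2 with the stricter filter, which left *Pkib* out, and 0 under median scaling, without a detection filter, with the replicate block and with arrays numbered 3 given a term of their own, added after seeing the data. With 1 array left out it was 0 to 1, and 1 only without PTH replicate 3. The counts of genes by brightest probe were the same, 5, 3, 2 and 0. Other pathway genes called numbered 5 under quantile normalization alone and 5 with an offset of 50, against 3, and 2 to 3 with 1 array left out. Of the 3, *Pthr1* was lost with the replicate block and *Tnfsf11* without a detection filter and in 5 of 6 omissions of an array, all except that of control replicate 3. *Rgs2*, above background on 1 control array, was not tested with the stricter filter. The median member difference, 0.06, was 0.17 under median scaling, where the median of all probes was 0.11, 0.031 without a filter, and 0.020 to 0.091 with 1 array left out. *Prkacb* turned to 0.060 and *Prkar2b* to 0.039 under median scaling, both below the median of all probes there. With 1 array left out, *Pkia* ranged from -0.28 to 0.32, a *Pkig* probe from -0.051 to 0.10, a *Prkaca* probe from -0.15 to 0.17, *Prkar1b* from -0.35 to 0.19 and *Adcy2* from -0.029 to 0.14, each around 0. The cause of these changes was not tested.

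Same-numbered arrays of the groups correlated at 0.07, 0.06 and 0.27 in their deviations from the group means. Between groups, arrays numbered 3 correlated at -0.14 to -0.13 with those numbered 1 or 2. The arrays numbered 1 and 2 correlated at 0.07 across numbers, no less than within them. Deviations from a group's own mean cancel out within the group, so these correlations are tied to one another and are not separate observations. Probes above background were 34.8%, 36.3% and 38.4% on control arrays 1 to 3, and 34.2%, 36.1% and 38.4% on PTH arrays 1 to 3. The arrays numbered 3 thus deviated together, and the fit as reported has no term for this. The labels do not say whether the numbers mark pairs or a shared preparation. With the replicate block *Pkib* had a limma adjusted p of 0.0974 at the same difference, and with the term for the arrays numbered 3 it had 0.055. The 77 member probes that were too close to background to be tested give no statement on a change.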
